A study of Homo sapiens with 6 samples.

Results

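Prostaglandin synthesis and receptor genes were examined as a group of 9 genes chosen by symbol from the 61541 genes of the deposited count table: PTGS1, PTGS2, PTGES, PTGES2, PTGES3, PTGIS, PTGER2, PTGER4 and HPGD. Their levels were compared between parental MDA-MB-231 cells and MDA-MB-231-D3H2LN cells (MDA231-LN below), with total RNA of each line sequenced in 3 bulk libraries. MDA-MB-231 is an established triple-negative human breast cancer line. MDA231-LN is known as a luciferase-expressing subline of it, recovered from a lymph node metastasis in a mouse. Both were grown in the same high-glucose medium with 10% fetal bovine serum, with no treatment named. The series title names JAGGED-1, a Notch ligand, and lymph node metastasis. Each kind of cell is a single line, so lymph node origin cannot be told apart from the luciferase or any other difference between the lines. Whether the 3 libraries of a line are separate cultures is not stated in the labels, so the p-values speak of the spread among these libraries alone, and that spread may be technical.

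Prostaglandins are lipid mediators made from arachidonic acid that phospholipases release from membranes. A cyclooxygenase, either the mostly constitutive PTGS1 (COX-1) or the inducible PTGS2 (COX-2), converts it to prostaglandin H2, which terminal synthases turn into prostaglandin E2 (PGE2), prostacyclin and other prostanoids. PGE2 acts on the receptors EP1 to EP4, and HPGD inactivates it. In breast cancer the COX-2 and PGE2 axis is known for links with invasion, angiogenesis and lymphatic spread.

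MDA231-LN had more PTGS2, PTGER2 and HPGD transcript and less PTGS1 than the parental line, whereas the dedicated PGE2 synthase gene PTGES was nearly level. Of the 9 genes, 7 had enough counts to be tested; 4 rose (PTGS2, PTGES3, PTGER2 and HPGD), 1 fell (PTGS1), and PTGES and PTGES2 did not pass. Here "rose" (higher in MDA231-LN) and "fell" (lower) are used only at a Benjamini-Hochberg adjusted p under 0.05 in edgeR's quasi-likelihood test, adjusted over all 14176 genes tested. The lines differed at most expressed genes: 62.8% of all tested genes passed, 31.6% higher and 31.2% lower in MDA231-LN, so the 5 of 7 seen here lie close to that background. A change of at least 2-fold was less common, at 20.6% of all tested genes (13.0% higher and 7.53% lower). It was seen in 4 of the 7, with 3 higher and 1 lower. PTGER2 and HPGD had enough counts to be tested only through the MDA231-LN libraries, where they were higher. Their place among the 7, and so among the 3 higher, was not independent of their rise. The libraries of the lines did not overlap for 5 of the 7, against 66.6% of all tested genes. The median log2 fold change was 0.17 over the 7 tested genes and 0.02 over all tested genes. The 9 genes and the 5 further lists used below were chosen with earlier results of these data known. Their shares and medians beside those of all tested genes are therefore descriptions and not tests.

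The promoter windows of the cyclooxygenase genes and of PTGER2 are printed first, because PTGS1 and PTGS2 changed in opposite directions and PTGER2 rose with PTGS2. Each is the 250 bases before an annotated start, 5′ to 3′ on the gene's strand, from RefSeq on GRCh38.p14, with motif matches in capitals. PTGS2 is chr1:186680424-186680673, minus strand. PTGER2 is chr14:52314062-52314311, plus strand. PTGS1 has a window for each of its starts, chr9:122370283-122370532 and chr9:122375052-122375301, plus strand.
PTGS2: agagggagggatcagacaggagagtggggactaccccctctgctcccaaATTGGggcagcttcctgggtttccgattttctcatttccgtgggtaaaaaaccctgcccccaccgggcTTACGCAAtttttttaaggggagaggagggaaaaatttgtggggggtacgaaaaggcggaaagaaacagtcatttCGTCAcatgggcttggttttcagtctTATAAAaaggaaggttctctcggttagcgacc
PTGER2: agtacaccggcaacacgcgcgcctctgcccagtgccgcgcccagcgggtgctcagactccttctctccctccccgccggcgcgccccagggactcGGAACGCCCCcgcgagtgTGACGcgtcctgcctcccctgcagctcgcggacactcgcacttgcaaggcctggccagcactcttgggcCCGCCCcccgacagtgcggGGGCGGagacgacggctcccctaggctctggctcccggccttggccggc
PTGS1, first start: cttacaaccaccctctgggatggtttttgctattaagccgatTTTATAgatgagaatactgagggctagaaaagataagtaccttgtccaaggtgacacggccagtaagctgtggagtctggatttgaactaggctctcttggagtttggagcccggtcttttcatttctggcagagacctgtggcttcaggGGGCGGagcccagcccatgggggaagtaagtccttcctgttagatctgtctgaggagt
PTGS1, second start: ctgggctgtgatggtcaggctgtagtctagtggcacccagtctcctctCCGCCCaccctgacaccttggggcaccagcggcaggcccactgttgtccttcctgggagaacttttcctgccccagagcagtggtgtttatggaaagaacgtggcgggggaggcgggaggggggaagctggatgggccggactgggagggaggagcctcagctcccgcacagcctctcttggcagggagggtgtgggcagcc

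The following motifs were looked for on both strands. They were the TATA box TATAAA, the CCAAT box, the cAMP response element half-site TGACG and its full form TGACGTCA, the C/EBP-like TTNCGCAA, the E-box CACGTG, the GC box GGGCGG, the AP-1 site TGANTCA, the RBPJ core TGGGAA and the NF-kappa-B consensus. A full cAMP response element also counts as a half-site. The PTGS2 window held TATAAA at -32 to -27 from the start, TGACG on the opposite strand at -58 to -54, TTNCGCAA at -133 to -126 and CCAAT on the opposite strand at -201 to -197. Of 35116 windows of this length, 10.7% held TATAAA, 21.2% TGACG, 0.752% TTNCGCAA and 32% CCAAT. The PTGER2 window held TGACG at -137 to -133. It held GGGCGG on the opposite strand at -68 to -63 and on the gene's strand at -49 to -44. An NF-kappa-B consensus lay on the opposite strand at -155 to -146. GGGCGG was found in 42.6% of all windows and the NF-kappa-B consensus in 9.96%. Both PTGS1 windows held GGGCGG, the first at -58 to -53 and the second on the opposite strand at -202 to -197. The first also held TATAAA on the opposite strand, at -208 to -203. None of these 4 windows held the full cAMP response element, the E-box, the AP-1 site or the RBPJ core, which 1.65%, 6.34%, 6.57% and 20.8% of all windows held. A match describes letters in a window and is not evidence of binding.

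PTGS2, the inducible cyclooxygenase gene (ENSG00000073756, chromosome 1 from 186671791 to 186680922 of GRCh38, minus strand), was counted at 1.89, 1.58 and 1.12 CPM in the parental libraries and at 10.5, 9.7 and 8.38 CPM in the MDA231-LN libraries. CPM is the count scaled to a common library size, here on TMM-scaled library sizes, listed in the order of replicates 1, 2 and 3. All 3 MDA231-LN libraries lay far above all 3 parental ones, and 4.84% of tested genes had a larger increase. The mean went from 1.53 ± 0.385 to 9.53 ± 1.07 CPM (SD, n = 3), a 6.24-fold rise with log2 fold change 2.64 ± 0.23 (SE; edgeR quasi-likelihood, adjusted p = 1.39e-10). PACERR, an antisense RNA gene that starts beside PTGS2, overlaps 3.3% of its span; fragments touching both genes were not counted, and PACERR itself had 6 counts in the parental line and 5 in MDA231-LN. In bulk libraries, fewer cells expressing a gene and less RNA per cell cannot be told apart.

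PTGS1, the constitutive cyclooxygenase gene (ENSG00000095303, chromosome 9 from 122370530 to 122395703, plus strand), went the other way. It stood at 2.01, 3.49 and 3.16 CPM in the parental libraries and at 0.615, 0.61 and 0.72 CPM in MDA231-LN. The MDA231-LN libraries lay close together and below all parental ones, among which replicate 1 was lowest. PTGS1 fell 4.41-fold, from 2.89 ± 0.775 to 0.648 ± 0.062 CPM (SD, n = 3; log2 fold change -2.14 ± 0.38, edgeR quasi-likelihood adjusted p = 2.59e-05), and 1.8% of tested genes had a larger decrease. These values rest on 147 counted fragments in the parental line and 37 in MDA231-LN.

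The cyclooxygenase transcripts were also set against each other within each library, and the PTGS2 share was higher in every MDA231-LN library. PTGS2 made up 48.4%, 31.2% and 26.2% of the PTGS1 and PTGS2 fragments in the parental libraries, with 95% Wilson intervals of 36.6 to 60.4%, 22.2 to 42.1% and 17.9 to 36.8%. In MDA231-LN the shares were 94.5%, 94.1% and 92.1%, with intervals of 90.6 to 96.8%, 89.7 to 96.7% and 87.2 to 95.2%. PTGS2 was thus the minor or equal partner in each parental library and the predominant one in each MDA231-LN library. The mean share went from 35.3 ± 11.6% to 93.6 ± 1.29% (SD, n = 3), a difference of 58.3 percentage points; the two-sided exact permutation test gave p = 0.10, the smallest that 3 libraries against 3 allow. Scaled to exonic length, the PTGS2 shares were 50.8%, 33.3% and 28.1% in the parental line and 94.9%, 94.6% and 92.8% in MDA231-LN. The summed level of both genes was 3.9, 5.07 and 4.28 CPM in the parental libraries against 11.1, 10.3 and 9.1 CPM in MDA231-LN. These intervals allow for counting error alone, as no molecular identifiers are named and reads need not be independent molecules.

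**Figure D1:**
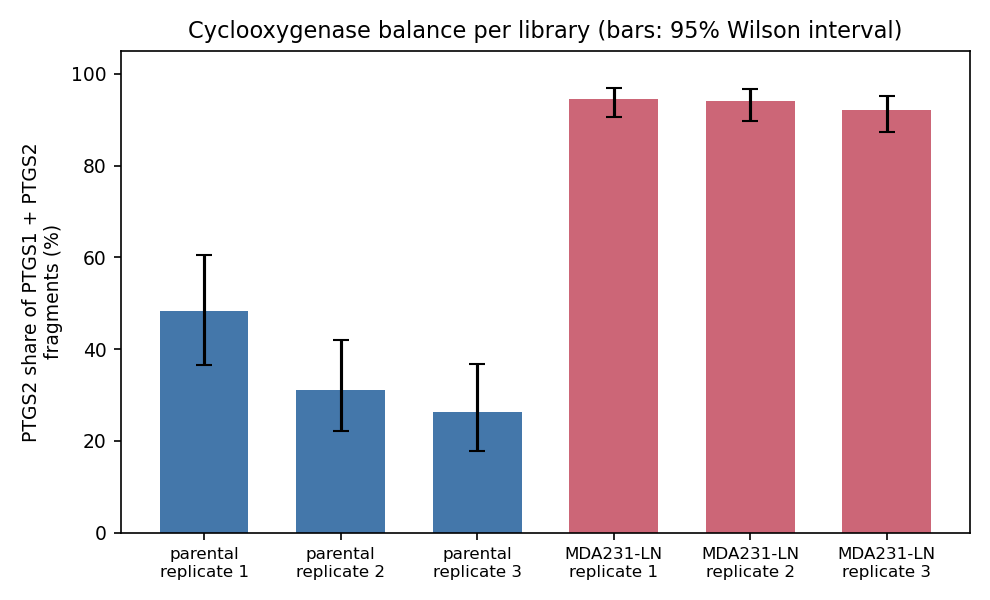
PTGS2 share of the PTGS1 and PTGS2 fragments (percent, vertical axis) in each of the 6 libraries (horizontal axis), with 95% Wilson intervals as error bars. The parental libraries lie between 26.2% and 48.4% and the MDA231-LN libraries between 92.1% and 94.5%.

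The PGE2 synthase genes were more abundant per exonic kilobase and changed little. PTGES encodes the inducible microsomal PGE2 synthase, which often acts with COX-2 (ENSG00000148344, chromosome 9 from 129738331 to 129753042, minus strand). It was at 51.5, 57.1 and 50 CPM in the parental libraries against 53, 53.8 and 51.4 CPM in MDA231-LN. The lines overlapped, the means were 52.9 ± 3.73 and 52.7 ± 1.18 CPM (SD, n = 3), and the log2 fold change was 0.00 with a 95% interval of -0.16 to 0.15 (edgeR quasi-likelihood adjusted p = 0.974). PTGES2, another membrane-associated PGE2 synthase gene (ENSG00000148334, chromosome 9 from 128120693 to 128128462, minus strand), was at 78.4, 73.2 and 63.6 CPM against 82.3, 76.6 and 81.7 CPM. The MDA231-LN values overlapped the parental ones, and the log2 fold change of 0.16 ± 0.07 (SE; 95% interval 0.01 to 0.31) missed the threshold (edgeR quasi-likelihood adjusted p = 0.0577). That call depended on the setting: with upper-quartile scaling PTGES2 passed at a log2 fold change of 0.27 (adjusted p = 0.00224), and without parental replicate 1 at 0.22 (adjusted p = 0.0195), within a range of adjusted p from 0.00224 to 0.369 over 13 alternatives.

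PTGES3, which encodes cytosolic PGE2 synthase, also known as the HSP90 co-chaperone p23 (ENSG00000110958, chromosome 12 from 56663341 to 56688408, minus strand), was at 456, 499 and 458 CPM in the parental libraries against 524, 534 and 537 CPM in MDA231-LN. Every MDA231-LN library lay above every parental one, by a narrow margin. The rise was 1.13-fold, from 471 ± 23.8 to 531 ± 6.6 CPM (SD, n = 3; log2 fold change 0.17 ± 0.05, edgeR quasi-likelihood adjusted p = 0.00506). PTGES3 has processed pseudogenes, and a read placed equally well on one of them stayed uncounted. Upper-quartile scaling moved the PTGES3 log2 fold change from 0.17 to 0.29, and the median over all genes from 0.02 to 0.13.

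PTGIS, the prostacyclin synthase gene (ENSG00000124212, chromosome 20 from 49503874 to 49568137, minus strand), had 4, 0 and 0 counts in the parental libraries against 1, 0 and 0 in MDA231-LN, too few to test. The ratio of parental to MDA231-LN counts at equal library size was 4.48 with a 95% counting interval of 0.444 to 221, so no difference was detectable at this depth.

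**Figure D2:**
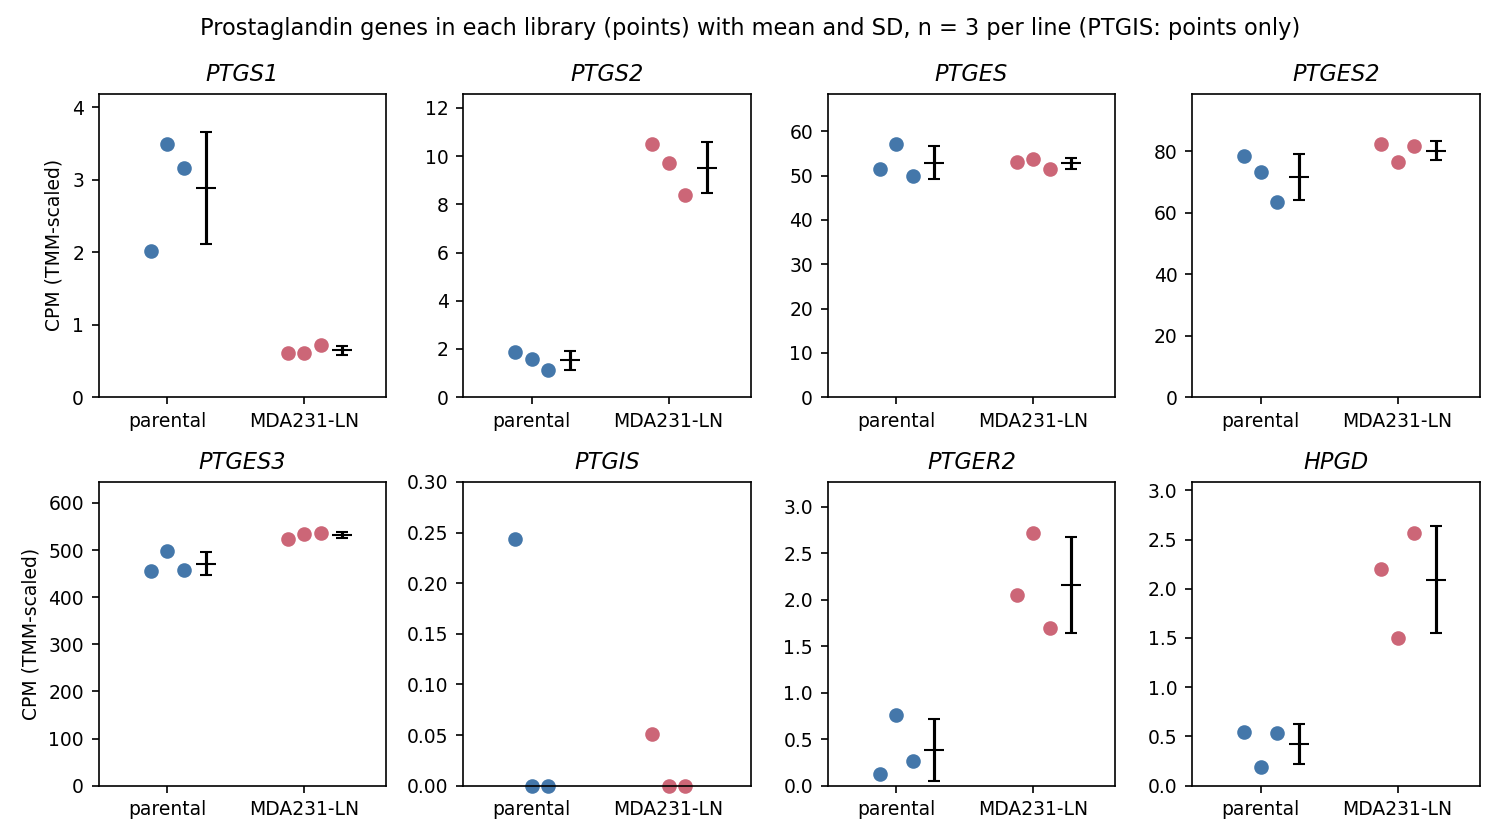
Level of 8 prostaglandin genes in each library (points) in CPM on TMM-scaled library sizes (vertical axis, a separate linear scale from 0 for each gene), by line, with the mean and SD over 3 libraries beside the points; PTGIS is drawn without a mean. PTGS2, PTGER2 and HPGD lie higher and PTGS1 lower in MDA231-LN without overlap, whereas the PTGES points of the lines overlap. PTGER4, listed at 0 throughout, is not drawn.

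Of the receptors, PTGER2 encodes EP2, which couples to Gs and raises cAMP (ENSG00000125384, chromosome 14 from 52314305 to 52328598, plus strand). It had 2, 12 and 5 counts in the parental libraries (0.122, 0.761 and 0.268 CPM) and 40, 49 and 33 in MDA231-LN (2.05, 2.72 and 1.7 CPM). All MDA231-LN libraries lay above the parental ones, of which replicate 2 was the highest. PTGER2 rose 5.63-fold, from 0.383 ± 0.335 to 2.15 ± 0.518 CPM (SD, n = 3; log2 fold change 2.49 ± 0.51, edgeR quasi-likelihood adjusted p = 1.23e-04). The size of the change leans on 1 library: without parental replicate 2 the fold was 10.5 (log2 fold change 3.39, adjusted p = 3.60e-05), and over 13 alternatives the adjusted p ranged from 7.49e-07 to 0.00372.

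PTGER4, the gene of the other Gs-coupled PGE2 receptor EP4 (ENSG00000171522, chromosome 5 from 40679915 to 40693735, plus strand), was listed at 0 in all 6 libraries. Its whole span, 100% of its exonic bases included, lies inside TTC33 on the opposite strand (chromosome 5 from 40512333 to 40755963), and fragments touching both genes were not counted. PTGER4 was therefore not measured, and its 0 says nothing about expression. TTC33, named for this overlap, was at 27.9 ± 4.57 and 40.2 ± 5.6 CPM (SD, n = 3; log2 fold change 0.53 ± 0.11); these counts come from its bases outside PTGER4 and other genes.

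HPGD encodes 15-hydroxyprostaglandin dehydrogenase, which starts the breakdown of PGE2 and is often described as opposing COX-2 (ENSG00000164120, chromosome 4 from 174490175 to 174523154, minus strand). It had 9, 3 and 10 counts in the parental libraries (0.548, 0.19 and 0.535 CPM) and 43, 27 and 50 in MDA231-LN (2.2, 1.5 and 2.57 CPM). The lines did not overlap, and replicate 2 was lowest in each. HPGD rose 4.81-fold, from 0.425 ± 0.203 to 2.09 ± 0.545 CPM (SD, n = 3; log2 fold change 2.27 ± 0.47, edgeR quasi-likelihood adjusted p = 1.48e-04). Of its exonic bases, 9.7% lie inside another gene and were not counted. The synthesis gene PTGS2 and the breakdown gene HPGD were thus both higher in MDA231-LN.

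Levels of different genes were compared as CPM per kilobase of countable exon; since introns were counted too, this order is approximate. In the parental line PTGES3 led at 139 ± 7, followed by PTGES at 27.9 ± 1.97 and PTGES2 at 23.6 ± 2.46 (SD, n = 3), whose means differed by less than the sum of their SDs. PTGS1 at 0.498 ± 0.134, PTGS2 at 0.291 ± 0.0731, PTGER2 at 0.155 ± 0.135, HPGD at 0.0851 ± 0.0407 and PTGIS at 0.0146 ± 0.0252 followed. Of these, PTGS2 and PTGER2, and PTGER2 and HPGD, also differed by less than the sum of their SDs. In MDA231-LN the first 3 places were the same, at 156 ± 1.94, 27.8 ± 0.623 and 26.4 ± 1.04. PTGES and PTGES2 again lay within the sum of their SDs. PTGS2 at 1.81 ± 0.204 then stood ahead of PTGER2 at 0.871 ± 0.21, HPGD at 0.419 ± 0.109, PTGS1 at 0.112 ± 0.0107 and PTGIS at 0.00306 ± 0.0053, each apart from the next by more than that sum. The cyclooxygenase genes stayed well below the PGE2 synthase genes on this scale in both lines.

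Chromosomal neighbours gave a local reference. Tested genes within 5 Mb had a median log2 fold change of -0.01 around PTGS2 (27 genes), 0.02 around PTGS1 (48 genes) and between 0.00 and 0.02 around PTGES, PTGES2 and PTGES3. Around PTGER2 the median was 0.21 over 58 genes, of which 32 rose and 7 fell. Around HPGD it was 0.28 over 24 genes, of which 13 rose and none fell (0). Over all tested genes 31.6% rose and 31.2% fell. Both medians were smaller than the log2 fold changes of 2.49 for PTGER2 and 2.27 for HPGD; the part of the segments in those changes was not tested. The median around the unmeasured PTGER4 was 0.25 over 44 genes.

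**Figure D3:**
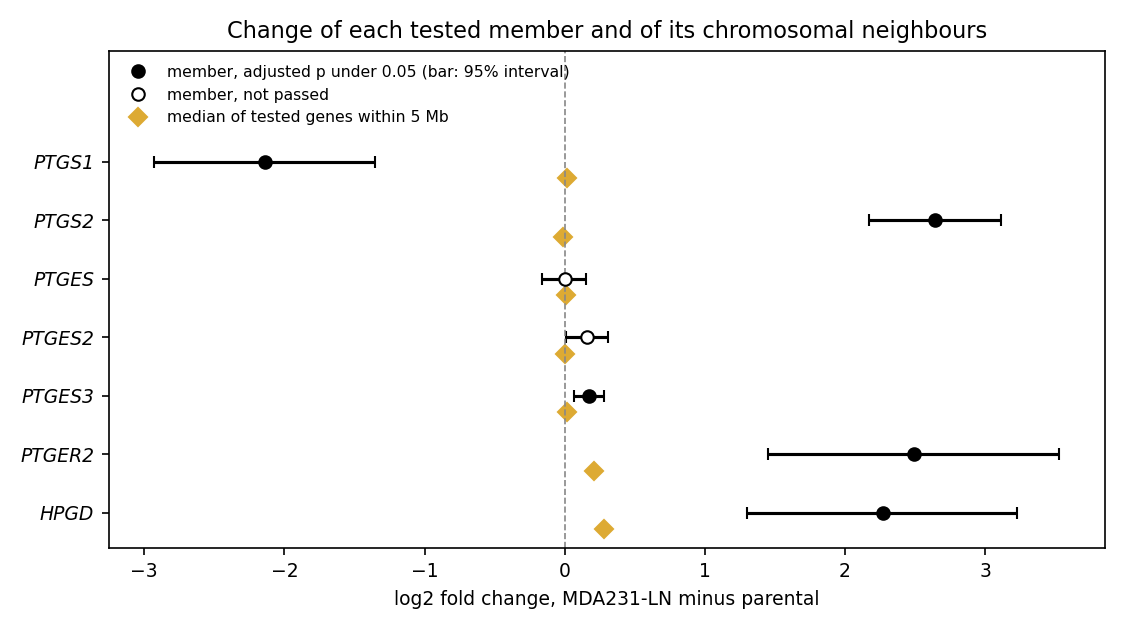
Log2 fold change of MDA231-LN over the parental line (horizontal axis) for the 7 tested genes (circles with 95% intervals, filled where the adjusted p was under 0.05) and the median of the tested genes within 5 Mb of each (diamonds). PTGS2, PTGER2 and HPGD lie above 2 and PTGS1 below -2, while the neighbour medians lie between -0.01 and 0.28.

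The tested genes whose log2 CPM profiles over the 6 libraries lay closest to that of PTGS2 after centring were DMKN, a secreted epidermal protein gene, at a Euclidean distance of 0.363, GDF7, a BMP-family growth factor gene, at 0.374, and UCN2, a urocortin peptide gene, at 0.379. Their log2 fold changes were 2.48, 3.08 and 2.81, beside 2.64 for PTGS2.

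Upstream of the cyclooxygenases, the phospholipase genes that can release arachidonic acid were few: of 4 that could be tested, 1 rose and 2 fell, where 31.6% and 31.2% of all tested genes did. PLA2G4A, the cytosolic phospholipase A2 gene that lies near PTGS2 on chromosome 1 (186828949 to 186988981), was at 5.42, 5.26 and 4.66 CPM in the parental libraries against 3.07, 3.1 and 3.39 CPM in MDA231-LN. It fell by 0.68 on the log2 scale, without overlap, while PTGS2 rose (edgeR quasi-likelihood adjusted p = 0.00954). The calcium-independent phospholipase gene PLA2G6 rose 2.03-fold, from 5.79 ± 0.292 to 11.8 ± 0.804 CPM (SD, n = 3). PLA2G16, now named PLAAT3, fell 2.63-fold, from 62.5 ± 4.65 to 23.7 ± 0.535 CPM. PLA2G10 was at 0.428 ± 0.4 and 0.509 ± 0.335 CPM and did not pass. PLA2G4C, picked after its values were seen, was too sparse for the test, with 3 counts in the parental line and 57 in MDA231-LN; their ratio was 17, with a 95% counting interval of 5.52 to 84.6.

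The synthases, transporters and breakdown enzymes outside the 9 genes that could be tested, 10 in number, all passed, where 62.8% of all tested genes did. They were listed with earlier results of these data known, so that contrast is a description only. Of 4 tested terminal synthase genes 3 rose and 1 fell. AKR1B1, an aldo-keto reductase gene with prostaglandin F synthase activity, rose 3.99-fold, from 128 ± 12.7 to 509 ± 30 CPM (SD, n = 3). The thromboxane synthase gene TBXAS1, picked after its values were seen, rose 2.25-fold, from 6.77 ± 0.984 to 15.3 ± 1.73 CPM. The faller was PRXL2B, at 31.3 ± 4.57 and 26.2 ± 2.05 CPM with overlap between the lines; its call was lost with upper-quartile scaling (log2 fold change -0.14, adjusted p = 0.24), with DESeq2, with limma-voom and without 4 of the 6 libraries in turn (MDA231-LN replicates 1 and 2, parental replicates 1 and 2; adjusted p 0.087 to 0.206). Of 6 tested genes of export, uptake and breakdown, 3 rose and 3 fell. SLCO4A1, an organic anion transporter gene, fell 7.34-fold, from 343 ± 19.9 to 46.6 ± 1.37 CPM. The other fallers were ABCC4, from 72.7 ± 0.877 to 56 ± 3.22 CPM, and PTGR3, from 37.1 ± 2.41 to 19 ± 1.07 CPM. SLCO2A1, the prostaglandin transporter gene that carries PGE2 into cells, also picked after its values were seen, had 0 counts in every parental library and 4.87, 4.32 and 5.35 CPM in MDA231-LN. Against a floor of 3 counts over the parental libraries (0.059 CPM) it was at least 82.4-fold higher. It could be tested only through its MDA231-LN counts. Among the other risers, AKR1C3 belongs to a family of near-identical genes and is uncertain, and SLCO3A1 and PTGR1 have 67.4% and 53% of their exonic bases inside another gene.

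Of 4 other tested receptor-group genes, 3 rose, none fell (0) and 1, PTGDR2, did not pass, where 31.6% of all tested genes rose. PTGFR, the prostaglandin F receptor gene, was at 0, 0.254 and 0.107 CPM in the parental libraries against 2.51, 3.16 and 2.67 CPM in MDA231-LN. This was a 22.3-fold rise from 6 counts (edgeR quasi-likelihood adjusted p = 1.45e-07). PTGFR could be tested only through its MDA231-LN counts, so its place among the 3 risers was not independent of its rise. TBXA2R, the thromboxane receptor gene, rose 2.77-fold, from 2.41 ± 0.503 to 6.67 ± 0.28 CPM (SD, n = 3). PTGFRN, which encodes a negative regulator of the prostaglandin F receptor, rose 4.04-fold, from 19.3 ± 2.69 to 78.4 ± 3.04 CPM. The PGD2 receptor gene PTGDR2 was at 0.497 ± 0.449 and 0.48 ± 0.39 CPM. The other PGE2 receptor genes could not be tested: PTGER1 (EP1) had 25 counts in the parental line and 18 in MDA231-LN, and PTGER3 (EP3) had 5 and 49, of which 33 lay in MDA231-LN replicate 2. In all, of 31 listed pathway genes 18 could be tested, 10 rose and 6 fell, where 31.6% of all tested genes rose and 31.2% fell; the median log2 fold change was 0.80, beside 0.02 over all genes. Of the 13 untested, 4 (PLA2G4B, CBR1, PTGR2 and CBR3) were not measured, since at least 98.4% of their exonic sequence is shared with another gene.

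**Figure D4:**
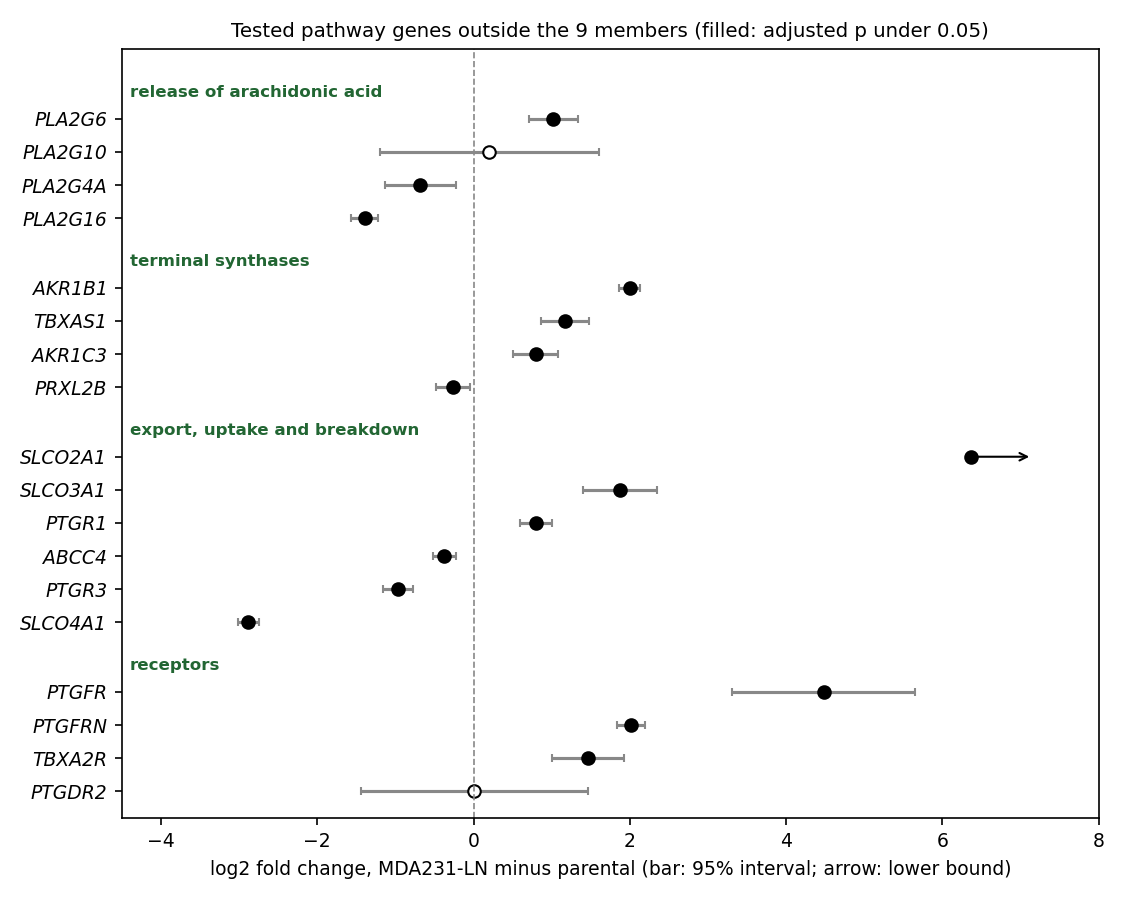
Log2 fold change of MDA231-LN over the parental line (horizontal axis) for the 18 tested pathway genes outside the 9, grouped by role, with 95% intervals; filled circles had an adjusted p under 0.05, and the arrow marks SLCO2A1, whose value is a lower bound because no parental library held a count. SLCO4A1 lies lowest at -2.88, and PTGFR at 4.48 is the highest apart from SLCO2A1.

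Downstream of EP2 and EP4, genes of the Gs and cAMP pathway passed at a share of 75%, near the 62.8% of all tested genes. Of 24 tested, 6 rose and 12 fell, with a median log2 fold change of -0.17, where 31.6% and 31.2% of all genes did; with upper-quartile scaling 9 rose and 8 fell. ARRB1, the beta-arrestin 1 gene, fell 11.1-fold, from 60.9 ± 1.83 to 5.47 ± 0.66 CPM (SD, n = 3). The cAMP phosphodiesterase genes PDE4A (93.4 ± 2.58 to 23.6 ± 1.12 CPM) and PDE4D (86.4 ± 2.69 to 38 ± 3.38 CPM) fell, while PDE4B rose (8.68 ± 1.47 to 30.1 ± 0.838 CPM). PRKAR2B, a regulatory subunit gene of protein kinase A, rose 5.34-fold, from 8.09 ± 1.95 to 43.4 ± 2.44 CPM. Of 12 listed genes known to be induced by cAMP, 9 could be tested. Of these 4 rose and 3 fell (median 0.19), 77.8% passing against 62.8% of all tested genes. The risers ADCY5, of the Gs and cAMP pathway, and SIK1, of the induced genes, could be tested only through their MDA231-LN counts. PDE4B, PDE4D and CREM belong to both lists. NR4A3, DUSP1 and CITED2 of the induced genes and PDE4C of the Gs and cAMP pathway were not measured. For each, 100% of the exonic bases lie inside another gene. SIK1, a salt-inducible kinase gene, rose 5.71-fold (0.321 ± 0.116 to 1.84 ± 0.322 CPM) and the nuclear receptor gene NR4A2 fell 2.41-fold (10.3 ± 1.21 to 4.26 ± 1.14 CPM).

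Genes of proteins that bind the AU-rich element of the PTGS2 transcript, which bears on its stability, also passed at a share (75%) near that of all genes (62.8%). Of 8 tested, 2 rose and 4 fell (median -0.10), and none changed 2-fold (0), as 20.6% of all tested genes did. With upper-quartile scaling 4 rose and 3 fell. TIA1 was not measured, since 99.3% of its exonic bases lie inside another gene. KHSRP, which promotes decay of such transcripts, was at 962 ± 59.3 and 733 ± 22.5 CPM (log2 fold change -0.39 ± 0.05), and ZFP36L2, of the tristetraprolin family, at 100 ± 13.6 and 72 ± 5.48 CPM (-0.47 ± 0.08). Both passed (edgeR quasi-likelihood adjusted p = 3.70e-07 and 1.13e-05). The other fallers were TIAL1 (log2 fold change -0.25 ± 0.05) and ELAVL1 (-0.22 ± 0.05). The risers were ZFP36 (0.57 ± 0.17) and CELF2 (0.36 ± 0.07). ZFP36 had the largest change of the 8 tested.

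Total counts per library ran from 16461578 to 19171017 for parental cells and from 17661542 to 18882719 for MDA231-LN. Mitochondrial genes took 5.902 to 6.657% and 5.45 to 5.969% of them. Markers of the labelled cell type were present: VIM, CD44, EGFR, KRT18 and KRT8 summed to 3286 to 3342 CPM in the parental libraries against 4141 to 4356 CPM in MDA231-LN. Within that sum VIM and CD44 rose (log2 fold change 0.87 and 0.92), EGFR and KRT18 fell (-0.95 and -0.33), and KRT8 did not pass. Of the receptor genes expected to be low, ERBB2 was at 90.4 ± 4.32 and 89.8 ± 2.22 CPM (SD, n = 3). PGR had 1 count in the parental line and 0 in MDA231-LN. ESR1 rose, from 9 counts in the parental line to 54 in MDA231-LN. Immune markers summed to 1.22 to 2.73 and 1.08 to 2.41 CPM, with CD3E and MS4A1 at 0 throughout, the 5 endothelial markers to 9.82 to 15.2 and 13.3 to 14.8 CPM, and the 5 fibroblast markers to 17.7 to 21.4 and 17.4 to 22.8 CPM. Single markers differed in both directions. Of the endothelial markers, PROX1 rose, from 0.183 ± 0.126 to 3.76 ± 0.77 CPM (SD, n = 3). VWF and KDR fell (log2 fold change -1.65 and -0.93), PECAM1 did not pass and CDH5 was too sparse for the test. Of the fibroblast markers, PDGFRB fell, from 6.68 ± 1.9 to 2.89 ± 0.401 CPM. LUM rose, from 1 count in the parental line to 47 in MDA231-LN. COL1A1 did not pass, and COL1A2 and DCN were too sparse for the test. The part of other cell types in the results was not tested.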

How the data were processed

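RNA from 2 cell lines (3 libraries each) was sequenced in pairs of 150-base reads, per the labels' protocols. Raw counts per gene were deposited. Per the file headers, the authors counted with featureCounts 2.0.1 on Ensembl release 105 over whole gene bodies, introns included, with no strand option and with fragments touching more than 1 gene or place left out. Alignment with STAR to GRCh38 and a use of DESeq2 are named in the submitters' processing notes; the STAR version is not given in the sources used here. Counting without strand and over introns means that a gene inside another is listed with few or no counts.

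Symbols were matched for 61369 of 61541 genes, and exons, used only for overlap and length, came from GENCODE 29, which has 58366 of them. Counts were tested with edgeR 4.0.16 in R 4.3.3 (TMM, filterByExpr, quasi-likelihood test, cell line as the only term), with Benjamini-Hochberg adjustment over 14176 genes; log2 fold changes are MDA231-LN minus parental. Libraries of the same line differed by more than sampling noise (chi-square per degree of freedom 3.73 to 8.47), so none was counted as a duplicate. No library was left out.

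The 9 genes and the 5 further lists were chosen with earlier results of these data known. The text names all 9 genes; from each list the 4 genes of smallest adjusted p that passed with a change of 2-fold or more, or, where there were none, the 2 of smallest adjusted p; every testable prostanoid receptor and phospholipase A2; and the 3 profiles nearest to PTGS2. Some genes named outside this rule, because of an overlap or after their values were seen, are said to be so where they are described. PTGER1, PTGER3, PRXL2B, AKR1C3, SLCO3A1, PTGR1, ABCC4, PTGR3, LTA4H, ALOX5AP, LTC4S, CREM, ADCY5, ZFP36, CELF2, TIAL1 and the unmeasured genes also fall outside it. So do the cell type markers and the list genes named because their call changed under an alternative. Alternatives were upper-quartile or RLE scaling, DESeq2 1.42.0, limma-voom (limma 3.58.1), a block for the replicate number, leaving out each library, all genes unfiltered or only those at 1 CPM in 3 libraries, an adjusted p under 0.01, and neighbours within 1 Mb. Python 3.11.15 with pandas 2.3.3, scipy 1.17.1 and matplotlib 3.10.9 did the rest.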

Additional observations from a re-analysis of the deposited data

How the results depend on the processing

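Of 193 alternative values of the 7 tested members, the counts and the neighbour medians, 181 stayed the same. For a member value this meant the same side of the threshold and, where called, the same direction. A value that was not called could change sign. Counts were compared by the total called, whatever its split by direction, and medians by the limit set for them. For the 7 members, 0 called values reversed and 0 lost a call. PTGES, which passed under none of them (0 of 13), lay on either side of 0, from -0.05 to 0.11. The 5 member values that gained a call all concerned PTGES2, whose log2 fold change was 0.18 with RLE scaling (adjusted p = 0.0408), 0.18 with a filter of 1 CPM in 3 libraries (0.041), 0.17 with limma-voom (0.0464), 0.27 with upper-quartile scaling (0.00224), and 0.22 without parental replicate 1 (0.0195). Leaving out each library in turn gave PTGES2 0.07 to 0.22, with the other 5 fits short of the threshold. Of 63 other tested list genes, 7 lost a call under at least 1 alternative (PRXL2B, GNAS, ADCY6, ADCY9, PRKAR1A, NR4A1 and ELAVL1), 7 gained one and 0 reversed. The cause was not tested. With each library left out, the log2 fold change ranged from -2.35 to -2.00 for PTGS1, 2.44 to 2.82 for PTGS2, 0.14 to 0.21 for PTGES3, 2.08 to 3.39 for PTGER2 and 1.93 to 2.46 for HPGD. The 7 medians that moved were those of neighbours within 1 Mb in place of 5 Mb: -0.37 around PTGS2 (5 genes), -0.03 around PTGES, -0.07 around PTGES2, 0.17 around PTGER2, 0.31 around PTGER4 (4 genes), -0.02 around PTGIS and 0.19 around HPGD (4 genes). Upper-quartile scaling called 5415 genes higher and 3603 lower, against 4482 and 4422. The replicate numbers did not pair the samples (correlations of deviations -0.00394, 0.00241 and -0.0526). With the replicate block 4325 genes were higher and 4266 lower, 5 of the 9 genes still passed, and PTGES2 was at 0.17 (adjusted p = 0.063). Depth limits PTGIS, PTGER1 and PTGER3, and the folds of PTGER2, HPGD and PTGS1 rest on 19, 22 and 37 counts in the lower line.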

Other observations

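Outside the prostaglandin arm of arachidonic acid metabolism, lipoxygenase and leukotriene genes changed in both directions. Of 15 such genes 7 could be tested. Of these 5 rose and 1 fell, where 31.6% and 31.2% of all tested genes did (62.8% passing). The median log2 fold change was 0.57, beside 0.02 over all tested genes. ALOX5, the arachidonate 5-lipoxygenase gene that starts leukotriene synthesis, was at 0.122, 0.38 and 0.0535 CPM in the parental libraries against 7.89, 8.32 and 7.09 CPM in MDA231-LN, a 42.1-fold rise from 9 counts (log2 fold change 5.40 ± 0.37, edgeR quasi-likelihood adjusted p = 1.84e-12). The epidermal lipoxygenase genes ALOXE3 and ALOX12B rose 14.3-fold (0.148 ± 0.256 to 2.07 ± 0.51 CPM, SD, n = 3) and 3.91-fold (0.242 ± 0.13 to 0.949 ± 0.246 CPM). All 7 ALOXE3 counts of the parental line lay in replicate 2. ALOX5, ALOXE3 and ALOX12B could be tested only through their MDA231-LN counts. The faller was LTA4H, at 112 ± 5.94 and 89 ± 3.48 CPM (SD, n = 3; log2 fold change -0.33). ALOX5AP and LTC4S were too sparse for the test. They had 12 and 2 counts in the parental line and 18 and 8 in MDA231-LN. ALOX12 and LTB4R2 were not measured, because other genes cover 100% and 99.4% of their exons. Leukotriene output was not tested.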
